A study of Oryza sativa with 12 samples.

Results

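Leaves of rice were compared here between successive stages of the young inflorescence under short days. The plant was Nongken 58S, a photoperiod-sensitive genic male sterile mutant of the japonica variety Nongken 58, whose pollen aborts when the developing panicle passes through long days. The comparison set the 3 arrays of the pistil/stamen primordium forming stage (P-SSD) against the 3 arrays of the earlier glume primordium differentiation stage (G-SSD), which are 6 of the 12 arrays of the series. The arrays were taken by their labels and not by any measured value. Each array held RNA of the second fully expanded leaf, collected at the same hour of the night in all groups. All plants had first been brought to reproductive growth under short days (SD), with 10 h of light and 14 h of dark. They were divided at the secondary branch differentiation stage, after which both groups compared here stayed in SD and the other 6 arrays came from plants moved to long days (LD), with 15 h of light and 9 h of dark (G-SLD and P-SLD). The stage was thus that of the inflorescence, whereas the RNA was that of the leaf. A later stage was also a later sampling and a longer stay in SD, which cannot be told apart in this design. The labels call the 3 arrays of a group biological repeats and do not say whether each was 1 plant or a pool. A p-value here therefore sets a difference only against the spread of such repeats, pooled over all 4 groups in the main test.

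Rice flowers under short days. The leaf measures the length of the night with its circadian clock and, when nights are long, the response regulator Ehd1 drives transcription of Hd3a in the leaf vasculature. Hd3a encodes a florigen, a small protein that moves to the shoot apex and starts the inflorescence. The clock itself is made up of morning MYB proteins, pseudo-response regulators and the evening complex, of which the GARP protein OsLUX is a component.

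The array-wide table names probe sets only, and no file used here pairs them with genes. Genes can therefore be named only from the deposited tables of listed genes, which give one signal intensity per array for 105 genes at the glume stage and 201 genes at the pistil/stamen stage. These genes had been listed for a difference between SD and LD, not between the stages, and 30 loci stand in both tables. Their levels at both stages are set side by side below without a test, because the tables may have been normalized separately. The header of the glume stage table carries the letter of the other stage, and its columns were taken as glume-stage arrays from the table's name and from a second copy of the same values that carries the right letter. Values are linear signals, given for repeats 1, 2 and 3 in that order, and signals of different genes are not comparable with each other.

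The florigen gene Hd3a (LOC_Os06g06320, chromosome 6) read lower at the later stage. Its signal was 742.8, 865.3 and 825 in G-SSD and 320.2, 636.6 and 275.4 in P-SSD. Every G-SSD array lay above every P-SSD array, and repeat 2 of P-SSD lay closest to the glume-stage range. The group means were 811 ± 62.4 and 410.7 ± 196.9 (s.d., n = 3 each), a ratio of P over G of 0.5065, where s.d. is the standard deviation and SD is kept for short days. In LD the gene was near the bottom of the scale at both stages, at 11.09 ± 1.19 and 10.49 ± 1.57 (s.d., n = 3 each). Hd3a was therefore well above its LD signal on all 6 SD arrays, and the lowest of them, repeat 3 of P-SSD, read 275.4.

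Ehd1 (LOC_Os10g32600, chromosome 10), which acts upstream of Hd3a, showed no such separation. It read 215.7, 115.9 and 367.3 in G-SSD and 118.4, 224 and 295.9 in P-SSD. The P-SSD values lay inside the range of G-SSD, with a ratio of 0.9133. OsMADS1 (LOC_Os03g11614, chromosome 3), a MADS-box gene known for specifying floral organs, read 914.3, 938.4 and 1057 in G-SSD and 734.5, 1030 and 793.1 in P-SSD. Only repeat 2 of P-SSD reached the glume-stage range, and the ratio was 0.8788. With each array centred on the median of the 30 loci, the groups of OsMADS1 no longer overlapped and the ratio was 0.7606. OsMADS1 is also one of the inflorescence markers against which the leaf label was to be checked. Its LD signals ran from 45.9 to 152.8, so it read higher on every SD array than on every LD array. The other inflorescence markers and the leaf markers could not be read without gene names, and contributions of other tissue were not tested. In whole leaf, fewer cells of a type and less RNA per cell cannot be told apart. Of 10 flowering genes considered, these 3 were in both tables, and 1 of them, Hd3a, had groups that did not overlap, a separation towards lower values that 5.12% of all kept probe sets of the array-wide table also showed.

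Of 12 clock genes considered, 2 were in both tables. OsLUX (LOC_Os01g74020, chromosome 1, annotated in the table as ARR1 protein-like) read 484.6, 442.1 and 995.7 in G-SSD and 240.8, 329.6 and 405.9 in P-SSD. The groups did not overlap, and the mean of 640.8 ± 308.1 (s.d., n = 3) in G-SSD was drawn up by repeat 3. The ratio was 0.5079. OsLUX had the same order in LD, where the mean was 1525 ± 142.8 (s.d., n = 3) in G-SLD and 1133 ± 127.9 (s.d., n = 3) in P-SLD, again without overlap and with a ratio of 0.7427. The MYB gene annotated as CCA1-related (LOC_Os06g51260, chromosome 6), of the family of morning clock repressors, read 771.8, 672.8 and 613.9 in G-SSD and 733.6, 1117 and 659.3 in P-SSD. Its groups overlapped, with repeat 2 of P-SSD alone above the others and a ratio of 1.219.

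The most separated locus among those lower at the later stage was LOC_Os01g21420 (chromosome 1), annotated as the pre-mRNA splicing factor SF2, a protein of the serine/arginine-rich class that acts in choosing splice sites. It read 627.2, 692.4 and 758.9 in G-SSD and 249.6, 369.4 and 312 in P-SSD. The gap between the groups, from 369.4 to 627.2, was wider than the range within either. The ratio was 0.4479, and in LD it was 0.4601, where the groups overlapped through repeat 2 of P-SLD at 238.1.

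A kinase and a transporter had the highest ratios of the later to the earlier stage. The receptor-like protein kinase 5 locus (LOC_Os02g13430, chromosome 2), a kinase of the cell surface, read 80.34, 30.17 and 108.8 in G-SSD and 397.2, 338.9 and 392.5 in P-SSD. All 3 P-SSD arrays lay far above G-SSD, with a ratio of 5.147, the highest of the 30 loci. In LD its means stood the other way, at 363.2 ± 44.6 (s.d., n = 3) in G-SLD and 146.5 ± 144 (s.d., n = 3) in P-SLD, with overlap because repeat 3 of P-SLD read 312.8. The oligopeptide transporter 4 locus (LOC_Os02g46850, chromosome 2), of a family that carries short peptides and metal chelates across membranes, read 163.8, 188.7 and 153.7 in G-SSD and 745.7, 739.6 and 182.1 in P-SSD. Repeat 3 of P-SSD lay inside the glume-stage range and the other repeats far above it, so the ratio of 3.294 rests on repeats 1 and 2. In LD the transporter read 818.2 ± 42.7 (s.d., n = 3) in G-SLD and 102 ± 16.2 (s.d., n = 3) in P-SLD, without overlap and with a ratio of 0.1247. For both genes the order of the stages under SD was thus opposite to that under LD, a difference that was not tested. The listing bears on this order. On glume-stage arrays their SD means, 73.1 for the kinase and 168.7 for the transporter, lay below the LD means. On later-stage arrays the SD means, 376.2 and 555.8, lay above those of LD. Each table required a ratio of SD to LD of at least 2 or at most 0.5. Passing in opposite directions builds in a contrast of this kind. The opposite orders and high ratios therefore follow in part from the listing.

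**Figure D1:**
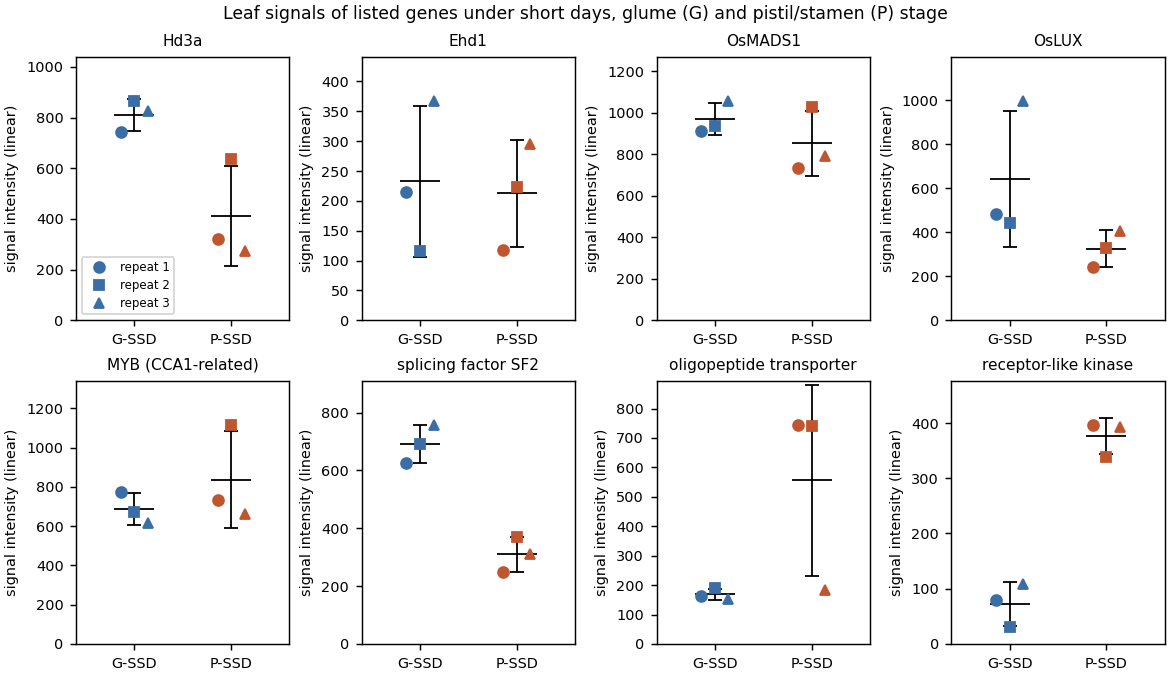
Signal intensity (linear, from 0) of 8 loci in both deposited tables of listed genes on the 3 G-SSD and 3 P-SSD arrays, with marker shapes for repeats 1 to 3 and black lines for the mean and s.d. Hd3a, OsLUX and the splicing factor SF2 locus read lower and the receptor-like kinase locus higher on every P-SSD array; the transporter is split by repeat 3 of P-SSD, at 182.1 against 745.7 and 739.6.

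The remaining named loci overlapped between the stages. The thiamine biosynthesis gene thiC (LOC_Os03g47610, chromosome 3), which makes the pyrimidine part of the vitamin, had means of 81.41 ± 22.9 in G-SSD and 58.86 ± 22.8 in P-SSD (s.d., n = 3 each), a ratio of 0.723. The heat shock factor genes, which encode activators of chaperone genes, had ratios of 0.752 for RHSF7 (LOC_Os03g06630) and 1.051 for RHSF11 (LOC_Os01g53220). The homeodomain-leucine zipper gene Hox22 (LOC_Os04g45810) read 718.6, 507.2 and 561.9 in G-SSD and 1047, 755.1 and 324.4 in P-SSD, so that repeats of P-SSD lay on either side of the glume-stage range. The tonoplast dicarboxylate transporter (LOC_Os09g31130), which moves malate into the vacuole, read 200.5, 120.2 and 171.6 in G-SSD and 307.7, 253.6 and 124.6 in P-SSD, with repeat 3 again the lowest of P-SSD. It was the lowest for the phosphoethanolamine N-methyltransferase gene (LOC_Os01g50030) too, an enzyme of choline synthesis, at 569.9 beside 1215 and 1012. Its G-SSD values were 1171, 996.9 and 1108. The glutaredoxin OsGrx_C7.2 (LOC_Os01g26912), an enzyme of the redox family, was uneven in P-SSD, with 595.9, 1019 and 737.4 in G-SSD and 1199, 385.4 and 1302 in P-SSD. A single P-SSD array thus lay below all 3 G-SSD arrays for Hox22, the methyltransferase and the glutaredoxin.

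Across the 30 loci, 1 was higher and 3 were lower at the later stage with no overlap, and 26 overlapped. Such separation was found for 7.08% and 5.12% of all probe sets kept in the array-wide table, in the respective directions. These shares come from quantile normalized signals and not from the scale of the listed values. The counts among the listed loci were few either way. The median ratio of P over G was 1.016 under SD, with 15 loci under 1 and 15 over 1, and 0.9179 under LD, with 23 under 1. The 14 loci listed as higher in SD than in LD at both stages had a median ratio of 0.8789 and the 14 listed as lower had one of 1.056. The spread between repeats was wider at the later stage, with a median coefficient of variation of 37.24% in P-SSD against 25.86% in G-SSD. The count of separated loci depended on single arrays. Without repeat 1 of P-SSD it was 7, by the addition of a DnaJ-domain ferredoxin gene (LOC_Os06g28050) above and of a zinc-binding transcription factor gene (LOC_Os08g08120) and the sigma factor gene rpoD (LOC_Os05g51150) below. Without repeat 3 of P-SSD it was 9, by the addition of oligopeptide transporter 4, Hox22, the tonoplast transporter and a phosphoglucomutase family gene (LOC_Os06g28194) above and of a ubiquitin-protein ligase gene (LOC_Os08g02850) below. Leaving out an array makes overlap rarer by construction.

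The stage comparison was then made over the whole array. Of 57381 probe sets, 187 belonged to controls and reporters and were removed, and 25360 of the rest were bright enough to be kept. On the log2 scale the kept probe sets had a median difference of P-SSD minus G-SSD of 0.02, with quartiles of -0.36 and 0.31, and the median standard error of a difference was 0.41. With limma, 0 of 25360 probe sets (0%) passed a Benjamini-Hochberg adjusted p of 0.05, and the smallest adjusted p was 0.1643. At an unadjusted limma p under 0.05 there were 1584 probe sets, 655 higher and 929 lower at P, where 5% of those tested would be 1268. The methods' t-test, run on the same values, gave 1435 at that level and 0 after adjustment, and there the larger part, 840 against 595, was higher at P. The limma count at an unadjusted p under 0.05 was 1191 with the 6 SD arrays alone. With single arrays left out it ran from 1064 to 2632, on both sides of 1268. No probe set is therefore described below as changed, and values are given in its place.

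A looser description follows the thresholds used by the study, a ratio of group means of at least 2 or at most 0.5 with an unadjusted p under 0.05, here from limma. It held for 780 probe sets. Of these 214 (0.844% of those tested) were higher at P and 566 (2.23%) were lower. The groups did not overlap for 160 of the 214 and for 441 of the 566, against 7.08% and 5.12% of all kept probe sets in these directions. Choosing by ratio and p on the same arrays favours separated groups, so these counts are no further evidence for the lists. The lower ones were also further apart and brighter. A ratio of 4-fold or more was found for 31 higher and 95 lower probe sets, and 8-fold or more for 1 and 22. Where the brighter group had a mean signal of at least 300, 5 were higher and 109 lower, and 3 of those 109 reached 8-fold. A probe set was kept if bright on at least 3 arrays, which is the size of 1 group. It could thus enter through the group where it was high alone, so large ratios are in part built in. With the filter applied on all 12 arrays 94 were higher and 278 lower at the 2-fold threshold.

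The share called as higher was smaller in brighter classes. In the dimmest of 5 equal classes by mean signal, with a median of 13.38, 90 probe sets were higher and 152 lower. In the brightest class, with a median of 567, 2 were higher and 64 lower. In other words 1.77% and 3% of the dimmest class were called against 0.0394% and 1.26% of the brightest. Probe sets from predicted genes (identifiers beginning OsAffx), with a median signal of 23.32 against 104.1 for the others, were called in 1.74% and 2.99% of cases against 0.642% and 2.06%. Other probe sets of the same transcript cluster, read from the cluster number in the identifier, leaned the same way. For clusters with a higher probe set, 44 of 71 others (62%) were also above 0, against 51.8% of all kept probe sets. For clusters with a lower one, 125 of 199 others (62.8%) were below 0, against 48.2% of all. Probe sets of one cluster read overlapping transcripts on the same arrays and are not independent.

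**Figure D2:**
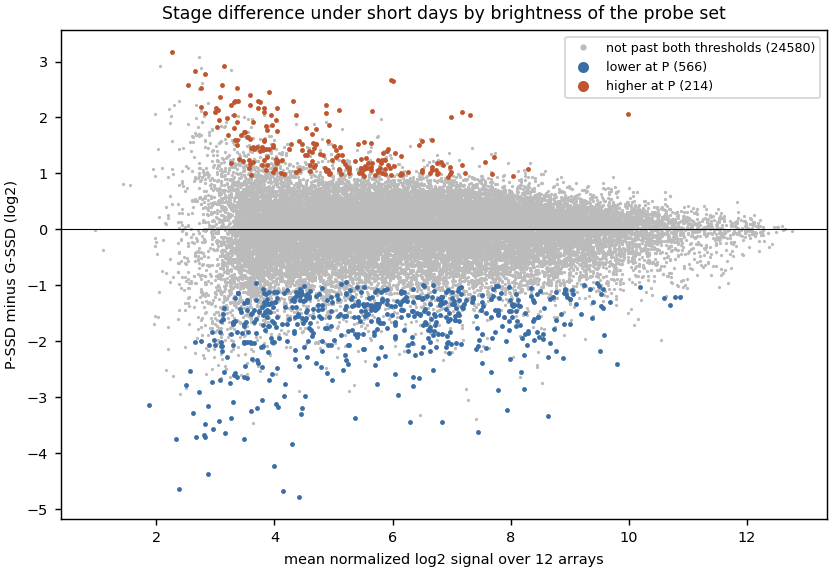
Difference of P-SSD minus G-SSD (log2, vertical) against mean normalized log2 signal over the 12 arrays (horizontal) for the 25360 probe sets kept, with the 214 higher and 566 lower at P by the 2-fold and unadjusted limma threshold in colour. The higher ones thin out to the right, down to 2 in the brightest of 5 classes against 64 lower ones.

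The largest separated differences that also held without repeat 1 of P-SSD were on probe sets with one group under or near the median signal of an array, 6.923 to 9.185 as deposited, and no file used here assigns them to a gene. The probe set OsAffx.28338.3.A1_x_at read 1.51, 2.18 and 1.31 in G-SSD and 10.1, 16.9 and 17.9 in P-SSD. For OsAffx.11874.1.S1_s_at the values were 1.58, 4.8 and 1.72 against 22.4, 15.7 and 16. In the other direction OsAffx.31506.1.S1_at read 22.5, 42.4 and 24.2 in G-SSD and 0.606, 2.24 and 1.94 in P-SSD. The low group of each of these probe sets lay wholly under the array medians, so the size of the difference, and its rank among others, is not well determined. With 16 added to each signal the log2 differences of the 3 probe sets went from 3.16 to 0.8, from 2.92 to 0.86 and from -4.37 to -1.35. The probe set Os.4683.2.S1_at read 46.4, 534 and 5.38 in G-SSD and 3.83, 0.644 and 3.25 in P-SSD, a log2 difference of -4.67 ± 1.82 (SE). Its G-SSD values alone spanned from 5.38 to 534, and in LD it reached 233. The unadjusted p of this probe set passed 0.05 neither with 16 added to each signal (difference -2.28) nor without repeat 2 of G-SSD (-2.98) or repeat 2 of P-SSD (-3.86). None of the 4 passed adjustment, with limma adjusted p from 0.5374 to 0.7512.

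The same stages were compared under LD, on 6 arrays that the SD comparison does not use for its means although both share one estimate of the spread. In LD 0 probe sets (0%) passed the adjusted limma threshold, with a smallest adjusted p of 0.9999, and 715 passed the unadjusted one. The 2-fold threshold held for 165 higher (0.651%) and 203 lower (0.8%) probe sets, 368 in all against 780 in SD. The quartiles of the LD differences were -0.24 and 0.26, narrower than in SD. Whether the stage difference depended on day length was tested as an interaction, which 0 probe sets (0%) passed after adjustment (smallest limma adjusted p = 0.1272) and 906 passed without, 280 positive and 626 negative.

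The probe sets called in SD were close to level in LD. They had been chosen by their SD difference, so smaller differences on the LD arrays follow in part from that choice. A response particular to SD cannot be read from them. The 566 lower ones had a median difference of -1.56 in SD and -0.06 in LD, and 54.6% of them were below 0 in LD, against 48% of all kept. The 214 higher ones had medians of 1.34 and 0.08, and 55.6% were above 0 in LD, against 52% of all. Lists of the 2 day lengths shared 14 lower probe sets, which is 2.47% of the SD list and 6.9% of the LD list, and 13 of the 566 were instead among the higher ones in LD. They shared 1 higher probe set, 0.467% and 0.606% of the lists, while 5 of the 214 were among the lower ones in LD. Of all kept probe sets 0.8% were called lower and 0.651% higher in LD, and 2.23% and 0.844% in SD. The share of lower probe sets in common was thus above that of all probe sets, and the share of higher ones was below it. Nearly as many of the 566 were called in the opposite direction in LD as in the same one. Across all 25360 probe sets the SD and LD differences had a Pearson correlation of 0.127 and a Spearman correlation of 0.109, which describe probe sets and not independent replicates.

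**Figure D3:**
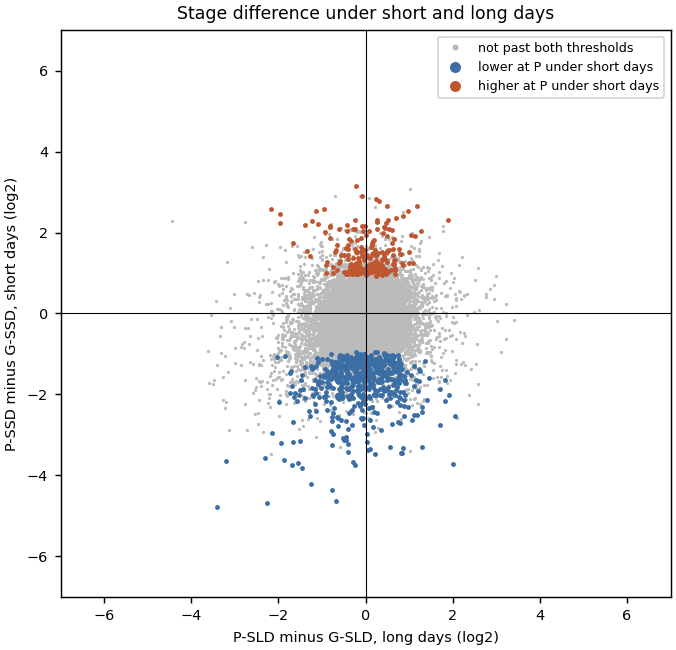
Difference between the stages under SD (vertical, P-SSD minus G-SSD) against that under LD (horizontal, P-SLD minus G-SLD), both in log2, for each of the 25360 probe sets. The 566 probe sets lower and 214 higher in SD spread around 0 on the LD axis, with LD medians of -0.06 and 0.08.

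The arrays of the later stage stood apart from each other more than those of the earlier one. Over the kept probe sets the log2 signals of repeats correlated at 0.932, 0.919 and 0.902 within G-SSD but at 0.862, 0.797 and 0.875 within P-SSD, and repeat 2 of P-SSD correlated better with every G-SSD array, at 0.914 to 0.931, than with its own repeats. The root mean square spread within a group was 0.88 in P-SSD and 0.61 in G-SSD. Repeat 1 of P-SSD had the lowest mean correlation with the other 11 arrays, 0.831 against 0.863 to 0.909. On that array the spike-in bioD gave 142.5 at its 3′ end, where the remaining arrays gave 1937 to 2639. The 5′ probe set of bioD gave 1145 there, inside their 974.5 to 1395, and the bioC and cre spike-ins also lay inside their range. The thr spike-in gave 29.33 there against 109.3 to 258.1. The 3′ over 5′ signal ratios of repeat 1 of P-SSD were 10.5 for Gapdh, 25.1 for Actin and 12.3 for the dap spike-in. The other SD arrays had 3.4 to 5.28, 3.05 to 7.34 and 2.64 to 4.38. Other control ratios did not set this array apart. They were 0.733 for ubiquitin, where the other SD arrays had 0.657 to 0.798, 1.86 for cyclophilin, where they had 0.596 to 2.64, and 12 for another pairing of Actin probe sets, where they had 6.99 to 23.8, so the Actin reading depends on the probe sets used. Repeat 3 of P-SSD had the highest 28S rRNA signal, 1406 against 643.7 to 908.6 on the other SD arrays. The part of these readings in the stage difference was not tested beyond leaving the arrays out.

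**Figure D4:**
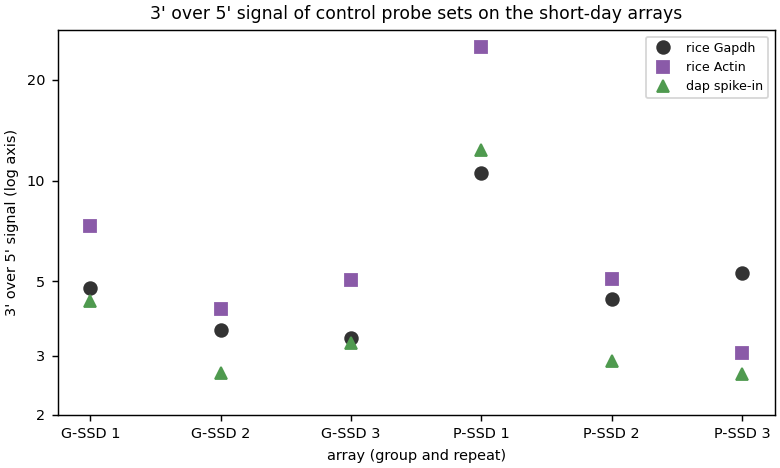
Ratio of 3′ to 5′ signal (log axis) of the rice Gapdh and Actin control probe sets and the dap spike-in on each of the 6 SD arrays. Repeat 1 of P-SSD has the highest value of each, at 10.5, 25.1 and 12.3.

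Without repeat 1 of P-SSD the 2-fold threshold held for 627 probe sets, 164 higher and 463 lower. Of the original lists 77 (36%) of the higher and 287 (50.7%) of the lower ones remained, and 0 passed adjustment, with 1064 at an unadjusted limma p under 0.05. Leaving out the other P-SSD arrays raised the counts instead. There were 1594 probe sets without repeat 2, 460 higher and 1134 lower, and 1548 without repeat 3, 395 higher and 1153 lower. Without repeat 3 of P-SSD, 9 probe sets passed the adjusted limma threshold, all lower at P, by -2 to -4.82. With all arrays the same 9 differed by -1.44 to -3.36, at unadjusted limma p from 1.31e-05 to 0.0403, and 5 of them had groups without overlap. With repeat 2 of G-SSD left out a different probe set passed, also lower. Without repeat 3 of G-SSD the higher list grew to 348 while the lower one was 538.

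The excess of lower over higher probe sets also depended on the scale between arrays. The signal at the 75th percentile of an array was 62.04 to 74.48 in G-SSD and 44.78 to 54.12 in P-SSD, without overlap, and quantile normalization removes this gap. With quantile normalization 72.6% of the 780 were lower, and with cyclic loess 76.1% of 746. Centring each array on its median gave 82 higher and 887 lower (91.5% lower), with a median difference of all kept probe sets of -0.17. Signals as deposited gave 47 and 1474 (96.9%), with a median of -0.29. Adding 16 to each signal gave 59 and 286 (82.9%), and keeping all probe sets gave 1229 and 1508 (55.1%). Without repeat 3 of G-SSD the share was 60.7% and without repeats 1 and 3 of P-SSD, chosen after seeing the data, it was 83.1%. The lower list at the 2-fold threshold was the longer one under each of these settings, by a margin that varied with the setting. After quantile normalization, measures without a fold did not all share this direction. Over all kept probe sets, 1795 had P-SSD values wholly above and 1299 wholly below those of G-SSD. If arrays were interchangeable between the groups, 5% of those kept, or 1268, would lie wholly apart in each direction. The median difference was 0.02, and the methods' t-test at its unadjusted threshold gave 840 higher and 595 lower. With quantile normalization the excess of lower probe sets was thus seen in the 2-fold lists and at the unadjusted limma p, and not in these other measures. That normalization gives all arrays 1 distribution, so these measures cannot show a shift of whole arrays. At an unadjusted limma p under 0.05 there were 141 higher and 1357 lower with median centring, and 75 and 2522 without normalization.

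**Figure D5:**
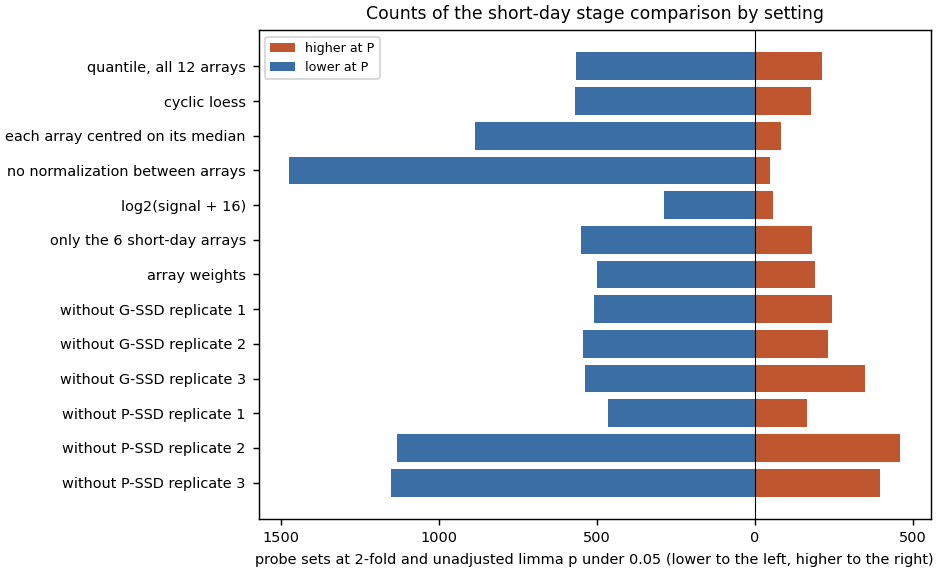
Number of probe sets at the 2-fold and unadjusted limma threshold, lower at P to the left and higher to the right of 0, for each normalization or left-out array. Lower probe sets outnumber higher ones in every bar, from 538 against 348 without repeat 3 of G-SSD to 1474 against 47 without normalization.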

How the data were processed

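Total leaf RNA was amplified to biotin-labelled cRNA and read on Affymetrix rice arrays. The authors deposited linear signal intensity for 57381 probe sets on 12 arrays; the submitters' processing notes name GCOS 1.4. The deposited tables of listed genes hold intensity values made in dChip, per the methods with invariant-set scaling and a background from 5% of perfect-match signals. Their fold change and P value columns compare SD with LD and were not used. The sources used here do not state whether both tables were scaled in one run.

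Signals of the array-wide table were put on the log2 scale and quantile normalized over the 12 arrays, after removal of 123 AFFX and 64 RPTR probe sets. A probe set was kept where at least 3 arrays put it at or above that array's 60th percentile. A limma 3.58.1 model (R 4.3.3) had 1 coefficient for each of the 4 groups and eBayes moderation with a trend. Tests were two-sided, and p-values were adjusted by Benjamini-Hochberg at 0.05. The procedure was also run on simulated data with 1 spread per probe set on all 12 arrays. The wider spread of P-SSD was not part of that simulation. The number of arrays limits the precision. Alternatives were other normalizations, an offset of 16, other filters, array weights, the 6 SD arrays alone, the replicate block, the methods' t-test and each array left out.

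Members, gene lists and rules were chosen with earlier results of these data known. Named probe sets, 2 in each direction, have the largest differences past the 2-fold threshold whose groups are separated with and without P-SSD repeat 1. Named loci are those in both tables. Values of 1 locus are not reported here, though it is in the counts. Gene symbols and roles beyond the tables' annotation are textbook knowledge.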

Additional observations from a re-analysis of the deposited data

How the results depend on the processing

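The adjusted limma count of the stage difference, 0 with all arrays, ran from 0 to 9 with single arrays left out and was 1 with array weights, 1 without the arrays of repeat 3 and 1 without repeats 1 and 3 of P-SSD, these last settings being chosen after seeing the data. The interaction count of 0 ran from 0 to 1 with single arrays left out and was 1 with array weights. The count of 780 at the 2-fold threshold ran from 627 to 1594 with single arrays left out. It was 1521 without normalization, 345 with an offset of 16, 2737 with no filter on dim probe sets, 372 with the filter applied on all 12 arrays (17681 probe sets tested), 408 with the methods' t-test and 1645 without the arrays of repeat 3. The count of 4 separated loci among the 30 ran from 5 to 9 with single arrays left out, where by construction it can only stay or rise. Of these settings all but the one without repeat 1 of P-SSD were added after seeing the data. Cyclic loess was also added then. Directions of the counts did not all hold. The separated loci were 1 higher and 3 lower with all arrays but 5 higher and 4 lower without repeat 3 of P-SSD, and the unadjusted count was 655 higher and 929 lower with limma but 840 higher and 595 lower with the methods' t-test. The 4 named probe sets kept their direction in every setting that held them. The filter on all 12 arrays was not among these, since their low groups lay under the array medians. They had been chosen to hold without repeat 1 of P-SSD, so that check was fixed in advance. Their unadjusted p held in 61 checks and was lost in 3, each for Os.4683.2.S1_at, while the offset of 16 took the log2 differences of the other named probe sets from 3.16 to 0.8, 2.92 to 0.86 and -4.37 to -1.35. The causes were not tested.

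The labels do not say whether the repeat numbers pair the arrays. Deviations of same-numbered G-SSD and P-SSD arrays from their group means correlated at 0.13, 0.01 and 0.27, and those of different-numbered arrays at -0.21 to 0.1. With the repeat number as a block the 2-fold count was 923, 269 higher and 654 lower. At an unadjusted limma p under 0.05 the block gave 2001 probe sets against 1584 without it, and 0 passed adjustment. A shared effect of the repeat number was not tested. Signal over background also bears on these counts. The median standard error of a difference was 0.61 in the dimmest of 5 classes and 0.28 in the brightest.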
